A study of Rattus norvegicus with 12 samples.

Results

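The unfolded protein response and the ATF4 response were followed through 40 genes in rat smooth muscle cells depleted of RBPMS, RBFOX2 or QKI. The genes were taken by symbol from a list drawn up with earlier results of these data known, though no measured value enters the rule, and all 40 were found among the 33294 gene rows of the count table. By role, 13 are ER chaperones and folding enzymes, 4 are genes of ER-associated degradation, and 4 encode the stress sensors and XBP1. Another 10 belong to the ATF4 arm, and 9 to amino acid synthesis and one-carbon metabolism. The figures label the ATF4 arm genes as regulators, although Chac1 encodes an enzyme and Vldlr a receptor. All 40 were abundant enough to be among the 18438 genes tested.

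Secretory cells fold membrane and secreted proteins in the endoplasmic reticulum (ER), and smooth muscle cells that make matrix or receptors rely on it. When unfolded protein accumulates there, the sensors IRE1 (gene Ern1), ATF6 and PERK (gene Eif2ak3) respond. IRE1 splices the mRNA of the transcription factor XBP1, cleaved ATF6 enters the nucleus, and both raise chaperone genes through promoter motifs that include the ER stress response element. PERK phosphorylates eIF2 alpha, which slows protein synthesis in general while the mRNA of the transcription factor ATF4 is translated more. Other kinases, activated by amino acid shortage or double-stranded RNA, phosphorylate the same site, so ATF4 target genes for amino acid synthesis, transport and tRNA charging can move without the ER chaperones.

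Poly(A) RNA was sequenced from PAC1 cells, a smooth muscle line from rat pulmonary artery, grown to favour the differentiated state, in 4 groups of 3 libraries that differ in the siRNA alone. The control group received the scrambled siRNA C2, and the others an siRNA against RBPMS, RBFOX2 or QKI, which are RNA-binding proteins that regulate splicing. The study describes the control cells of this experiment as less differentiated than those of its other RNA sequencing experiment. The labels give reverse transfection with 90 pmol of siRNA, a repeat of it 24 h later and collection of the cells 48 h after the repeat, while the methods of the study give longer intervals. All libraries come from 1 line in culture. Whether the libraries of a group came from separate cultures is not given in the labels, while the methods of the study state at least 3 biological replicates. The p-values measure only the spread between these libraries of 1 line.

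Levels are given in CPM, which are gene counts scaled to a common library size after TMM adjustment. Library totals lay between 110595399 and 151665474 counts, and Cth, the least abundant member, averaged 11.6 CPM over the 12 libraries. Each targeted gene was lower in its own knockdown than in control, by log2 fold changes of −2.50 for Rbpms, −2.05 for Rbfox2 and −3.13 for Qk, the rat symbol of QKI. Smooth muscle markers were present in all groups and differed between them: 7 of 8 were lower and 1 higher in RBPMS knockdown, 6 lower and 2 higher after RBFOX2 knockdown and 6 lower and 1 higher in QKI knockdown, where 29%, 30.1% and 34% of all genes tested were lower. Myh11 went the other way in each, at 0.34, 1.05 and 0.19, and Smtn was higher after RBFOX2 knockdown (0.18). Their summed level was 2136 to 2203 CPM in control, 1065 to 1175 CPM in RBPMS knockdown, 834 to 932 CPM after RBFOX2 knockdown and 1411 to 1499 CPM in QKI knockdown. Summed endothelial markers lay between 5.16 and 10.8 CPM, and Kdr, Ptprc, Adgre1 and Krt18 had at most 8 counts in any library. The macrophage and leukocyte list, mostly Cd14, summed to 37.8 to 39.5 CPM in control, 52.5 to 59.9 in RBPMS knockdown, 52.98 to 54.3 after RBFOX2 knockdown and 43.7 to 44.6 in QKI knockdown. The epithelial list, mostly Krt8, summed to 29.4 to 31.6, 36.2 to 44.2, 71.9 to 73.9 and 32.2 to 34.2 CPM in the same order. Markers at low level moved more than these sums in QKI knockdown: Csf1r went from 0.405 ± 0.0469 to 3.63 ± 0.337 CPM, Cd68 from 1.04 ± 0.119 to 1.98 ± 0.0931 CPM, Epcam from 0.0588 ± 0.0128 to 0.368 ± 0.0678 CPM and Cdh1 from 0.0815 ± 0.0298 to 0.391 ± 0.0979 CPM (SD, n = 3), each past the test. Low markers also moved in the other knockdowns. In RBPMS knockdown 1 endothelial marker (1.70) and 1 macrophage and leukocyte marker (1.17) rose by over 2-fold. After RBFOX2 knockdown 1 endothelial marker fell (−1.10), and in QKI knockdown 1 rose (1.27) and 1 fell (−1.18). The part of these markers in the results was not tested.

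Control 3 stood apart for the members. It was the lowest control library for 33 of the 40 members, while control 2 was the highest for 28. The median coefficient of variation of the members was 5.82% in control and 5.52% in RBPMS knockdown, against 1.82% after RBFOX2 knockdown and 2.43% in QKI knockdown. Calls that move without control 3 are given with the genes concerned. RBPMS knockdown 2 was the highest of its group for 26 members. Over all genes it also differed most from its replicates, by a chi-square per degree of freedom of 57.8 against replicate 1 and 45.6 against replicate 3. The largest value of any other pair within a group was 21.5, for control 2 and 3. Without RBPMS knockdown 2, the members over 2-fold in RBPMS knockdown still numbered 8.

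Promoter windows of 300 bases, from 250 before to 50 after the annotated start, were held by the RefSeq tables for 34 of the 40 members (assembly GRCr8, which is newer than the build used for counting). They were searched on both strands for the C/EBP-ATF composite element that ATF4 binds (TGATGNAA), the ER stress response element (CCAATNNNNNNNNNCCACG) and the UPR element (TGACGTGG). The ER stress response element was present in 5 of the 10 chaperone windows (Hspa5, Hsp90b1, Canx, Dnajc3 and Creld2) and in that of Xbp1, and in 0.076% of all 27457 windows. The composite element was present in 5 member windows (Herpud1, Trib3, Chac1, Nupr1 and Pycr1), which is 14.7% of the 34, and in 3.82% of all windows. The UPR element was found for Hyou1 alone among the members, and in 0.637% of all windows. None of the 13 matches overlapped a match to another motif. Only these patterns were searched, so a window without a match may hold another form of an element. A match describes the letters of the window, and its use in these cells was not measured. In the same annotation 17 of the 40 members share bases with another gene, among them Canx, Pdia3, Dnajb9, Herpud1, Atf6, Ddit3, Atf5, Sesn2, Vldlr and Pycr1, and as the strand setting of the counting is not given in the sources used here, their counts may hold reads of the neighbour.

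The 250 bases before the start are printed for the 5 members with the largest change in RBPMS knockdown among those whose window held a match. Other forms of the elements were not searched and stay in small letters. Capitals mark the ER stress response element in the first 2 and the composite element in the other 3. In Hspa5 it starts at position −43 before the transcription start, in Hsp90b1 at −176 and again on the opposite strand at −72, in Herpud1 at −184, in Trib3 at −21 and in Chac1 at −167, these last 3 on the opposite strand. The stretches lie at chr3:38452766-38453015 (plus strand), chr7:23012294-23012543 (minus strand), chr19:10614708-10614957 (minus strand), chr3:161275534-161275783 (minus strand) and chr3:126795881-126796130 (plus strand) of GRCr8.
Hspa5: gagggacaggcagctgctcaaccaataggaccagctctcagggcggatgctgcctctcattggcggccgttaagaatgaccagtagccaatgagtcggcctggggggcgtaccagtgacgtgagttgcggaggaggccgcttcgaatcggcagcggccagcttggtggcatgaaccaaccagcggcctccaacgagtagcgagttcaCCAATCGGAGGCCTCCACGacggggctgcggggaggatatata
Hsp90b1: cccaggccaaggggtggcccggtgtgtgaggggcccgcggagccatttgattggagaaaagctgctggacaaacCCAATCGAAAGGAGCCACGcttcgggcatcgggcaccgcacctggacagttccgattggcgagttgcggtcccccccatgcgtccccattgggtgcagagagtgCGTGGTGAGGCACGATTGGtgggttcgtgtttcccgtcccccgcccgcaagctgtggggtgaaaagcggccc
Herpud1: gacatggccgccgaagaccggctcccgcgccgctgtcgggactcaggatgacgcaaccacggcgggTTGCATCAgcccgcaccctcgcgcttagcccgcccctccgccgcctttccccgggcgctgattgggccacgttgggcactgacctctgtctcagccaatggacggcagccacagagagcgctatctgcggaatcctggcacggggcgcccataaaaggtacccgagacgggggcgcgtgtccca
Trib3: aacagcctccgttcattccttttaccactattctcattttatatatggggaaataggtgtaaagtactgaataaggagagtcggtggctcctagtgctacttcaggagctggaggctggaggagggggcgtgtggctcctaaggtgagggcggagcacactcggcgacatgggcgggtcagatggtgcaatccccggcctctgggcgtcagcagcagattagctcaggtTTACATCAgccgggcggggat
Chac1: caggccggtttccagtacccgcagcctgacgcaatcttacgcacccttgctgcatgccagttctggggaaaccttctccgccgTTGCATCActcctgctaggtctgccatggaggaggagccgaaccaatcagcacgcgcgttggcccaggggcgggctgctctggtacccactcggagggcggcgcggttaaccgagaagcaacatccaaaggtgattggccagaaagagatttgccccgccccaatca

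Most members rose in RBPMS knockdown and, by smaller amounts, in QKI knockdown, whereas after RBFOX2 knockdown more members fell than rose, by a margin that depended on the scaling. By edgeR's quasi-likelihood test with an adjusted p under 0.05 over all genes, 30 of the 40 members were higher in RBPMS knockdown than in control and 7 were lower, against 30.4% of all genes tested higher and 29% lower. After RBFOX2 knockdown 8 members were higher and 15 lower, against 30.1% and 30.1% of all genes. That split was 11 higher and 13 lower with library totals only, and 11 and 12 in the quantile-normalised table. In QKI knockdown 26 were higher and 7 lower, against 32.9% and 34% of all genes. Without control 3 the members higher and lower were 29 and 6 in RBPMS knockdown, 9 and 19 after RBFOX2 knockdown, and 20 and 8 in QKI knockdown. Members are abundant, and abundant genes pass more often: of the 9270 genes with a mean of at least that of the least abundant member, 76.2% passed in either direction in RBPMS knockdown, 75.3% after RBFOX2 knockdown and 80.7% in QKI knockdown. The members that passed in either direction were 37, 23 and 33 of 40. In these bulk libraries a change in the share of cells that use a gene and a change in RNA per cell cannot be told apart.

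Changes of over 2-fold were fewer. They were met by 8 members in RBPMS knockdown, all higher, against 9.66% of all genes tested. After RBFOX2 knockdown there were 3, Cth higher and Sesn2 and Nupr1 lower, against 11.7% of all genes, and in QKI knockdown 2, Hsp90b1 and Chac1, against 17.5% of all genes. Among the 9270 genes of at least the abundance of the least abundant member, the shares over 2-fold were 3.87%, 4.92% and 9.83%, so the 3 members after RBFOX2 knockdown stand below the share of all genes and above that of abundant ones. Without control 3 the count in RBPMS knockdown was 5, as Herpud1, Ppp1r15a and Chac1 no longer reached 2-fold, and that in QKI knockdown was 1, as Chac1 did not. The median log2 fold change of the 40 members was 0.53 in RBPMS knockdown, −0.055 after RBFOX2 knockdown and 0.17 in QKI knockdown, where the medians of all genes were 0.0085, 0.015 and 0.007. The 3 comparisons share the control libraries, so their values are set side by side and not tested against each other here.

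**Figure D1:**
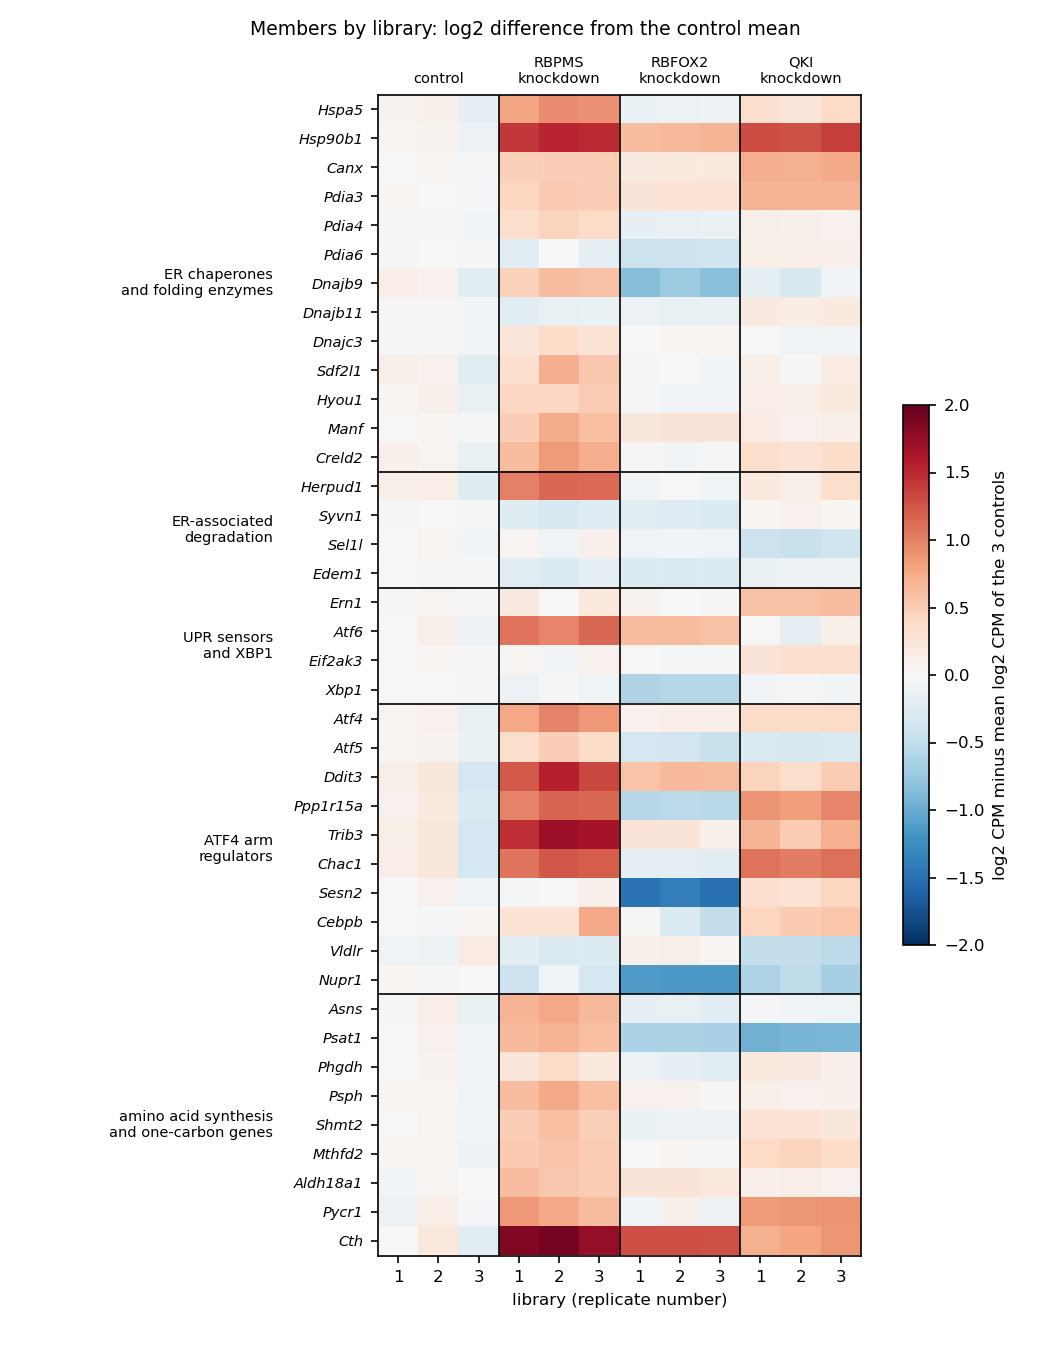
Heat map of the 40 members (rows, by role) in the 12 libraries (columns, by group and replicate number), coloured by log2 CPM minus the mean log2 CPM of the 3 controls. Most rows are red in the 3 RBPMS knockdown libraries, Sesn2, Nupr1 and Dnajb9 are blue after RBFOX2 knockdown, Psat1 is blue in RBFOX2 and QKI knockdown, and control 3 is the bluest of the controls for most rows.

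The ER chaperones and folding enzymes were led by the HSP90 chaperone of the ER lumen. Hsp90b1, which encodes it (GRP94), was at 1021, 1028 and 901 CPM in control 1, 2 and 3, at 2603, 2813 and 2768 CPM in RBPMS knockdown, at 1508, 1536 and 1578 CPM after RBFOX2 knockdown and at 2418, 2372 and 2546 CPM in QKI knockdown. Each knockdown library lay above each control library. The fitted log2 fold changes were 1.47 (SE 0.048, adjusted p 1.37e-13) in RBPMS knockdown, 0.65 (SE 0.047, adjusted p 2.44e-09) after RBFOX2 knockdown and 1.31 (SE 0.048, adjusted p 1.32e-13) in QKI knockdown. Hspa5 encodes BiP, the HSP70 chaperone that also holds the sensors inactive. Its levels were 1446, 1471 and 1229 CPM in control, 2377, 2666 and 2583 CPM in RBPMS knockdown, 1257, 1276 and 1286 CPM after RBFOX2 knockdown and 1725, 1633 and 1823 CPM in QKI knockdown. The RBPMS knockdown libraries were all above those of the other groups, and the RBFOX2 knockdown libraries lay within the range of the controls. Its log2 fold changes were 0.88 (SE 0.059, adjusted p 1.06e-09) in RBPMS knockdown, −0.12 (SE 0.059, adjusted p 0.0926) after RBFOX2 knockdown and 0.32 (SE 0.059, adjusted p 1.17e-04) in QKI knockdown. The value after RBFOX2 knockdown passed the test without control 3 (−0.20).

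Of the 13 genes, 11 were higher and 2 lower in RBPMS knockdown, 4 higher and 4 lower after RBFOX2 knockdown, and 10 higher and 1 lower in QKI knockdown. After RBFOX2 knockdown this is near the share of all genes (30.1% each way). Beside Hsp90b1 and Hspa5, the largest rise in RBPMS knockdown was that of Creld2, a secreted ER stress protein, at 0.74 (SE 0.059, adjusted p 9.52e-09). The 2 lower genes there were Dnajb11, a J-domain cofactor of BiP, at −0.17 (SE 0.033, adjusted p 3.60e-04), and the disulfide isomerase Pdia6 at −0.13 (SE 0.044, adjusted p 0.0156). The call of Pdia6 was lost without control 1, RBPMS-KD 1 or RBPMS-KD 3, with values from −0.21 to −0.09 over the fits that left out 1 library. Calnexin, the lectin chaperone of glycoproteins encoded by Canx, had its largest change in QKI knockdown, at 0.73 (SE 0.03, adjusted p 7.83e-13), and was at 0.48 in RBPMS and 0.19 after RBFOX2 knockdown. Its partner Pdia3 followed closely, with 0.48, 0.27 and 0.68 (SE 0.031, adjusted p 3.33e-12) in RBPMS, RBFOX2 and QKI knockdown.

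Dnajb9, a J-domain protein that directs BiP to IRE1 and a target of XBP1, differed most between knockdowns of the 13. It was at 68.8 ± 8.71 CPM (SD, n = 3) in control, 101 ± 5.48 CPM in RBPMS knockdown, 39.3 ± 1.88 CPM after RBFOX2 knockdown and 60.4 ± 5.53 CPM in QKI knockdown. It rose in RBPMS knockdown, by 0.55 (SE 0.077, adjusted p 8.99e-06), and fell after RBFOX2 knockdown, at −0.81 (SE 0.079, adjusted p 1.06e-07). Its value of −0.19 (SE 0.078, adjusted p 0.043) in QKI knockdown overlapped with control. That call was lost without control 1 or 2 or without QKI-KD 1 or 2 (values from −0.29 to −0.12). It held in only 4 of 9 other settings (values from −0.20 to −0.10), and was lost with RLE size factors, library totals only and the quantile-normalised table, among others. The remaining chaperone genes, Pdia4, Dnajc3, Sdf2l1, Hyou1 and Manf, all rose in RBPMS knockdown, by 0.30 to 0.62. After RBFOX2 knockdown they lay between −0.14 (Pdia4, lower) and 0.24 (Manf, higher), with no pass for the others, although Hyou1 (−0.054) passed without control 3 (−0.12). In QKI knockdown they lay between −0.044 and 0.15. The calls of Pdia4, Hyou1 and Manf there, like that of Pdia6 (0.12), were all lost without control 3, at 0.078, 0.078, 0.096 and 0.10. Hyou1 also lost its call without QKI-KD 3, and Manf without control 1, QKI-KD 1 or QKI-KD 3. For Pdia6 the call was also lost without control 2, QKI-KD 1 or QKI-KD 2.

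Genes of ER-associated degradation, which returns misfolded protein to the cytosol for destruction, did not move together. Herpud1, a ubiquitin-like scaffold of the degradation complex, was at 91.95, 92.7 and 71.4 CPM in control, 171, 187 and 186 CPM in RBPMS knockdown, 81.99, 84.8 and 79.7 CPM after RBFOX2 knockdown and 97.5, 91.8 and 108 CPM in QKI knockdown. RBPMS knockdown stood clear of all other groups, and both other knockdowns overlapped with control. Its log2 fold change was 1.09 (SE 0.079, adjusted p 2.80e-09) in RBPMS knockdown, and 0.97 without control 3. After RBFOX2 knockdown it was −0.055 (SE 0.079, adjusted p 0.573), which passed the test as −0.17 without control 3, and in QKI knockdown 0.22 (SE 0.079, adjusted p 0.0224), a call lost without control 3 (0.10) or QKI-KD 3 (0.15).

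The ubiquitin ligase gene Syvn1 and the mannosidase-like Edem1, which extracts glycoproteins from folding, were lower in RBPMS knockdown, at −0.27 (SE 0.035, adjusted p 2.89e-06) and −0.22 (SE 0.032, adjusted p 1.16e-05). Both were also lower after RBFOX2 knockdown, at −0.25 and −0.28. Sel1l, which encodes the adaptor of that ligase, passed the test in QKI knockdown alone, at −0.42 (SE 0.044, adjusted p 1.45e-07), with 0.024 in RBPMS knockdown (adjusted p 0.66) and −0.067 after RBFOX2 knockdown (adjusted p 0.196). Its value in RBPMS knockdown passed the test without RBPMS-KD 2 (0.077).

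Among the sensors, each knockdown gave its own pattern. Atf6, the membrane-bound transcription factor, was at 89.3, 95.5 and 81.8 CPM in control, 188, 175 and 198 CPM in RBPMS knockdown, 136, 137 and 133 CPM after RBFOX2 knockdown and 89.2, 78.1 and 95.8 CPM in QKI knockdown. RBPMS knockdown was highest and RBFOX2 knockdown intermediate, without overlap, and QKI knockdown overlapped with control. This gave log2 fold changes of 1.07 (SE 0.066, adjusted p 3.26e-10), 0.60 (SE 0.065, adjusted p 3.84e-07) and −0.019 (SE 0.065, adjusted p 0.815) in RBPMS, RBFOX2 and QKI knockdown. Ern1 was higher in QKI knockdown, from 49.8 ± 1.56 to 75.3 ± 1.12 CPM (SD, n = 3), at 0.60 (SE 0.046, adjusted p 3.65e-09). Its 0.14 (SE 0.047, adjusted p 0.0187) in RBPMS knockdown overlapped with control and was lost without control 1 or 3 or RBPMS-KD 1 or 3 (values from 0.095 to 0.20). Eif2ak3 also passed the test in QKI knockdown alone, at 0.30 (SE 0.041, adjusted p 4.57e-06).

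Xbp1, the transcription factor gene whose mRNA IRE1 splices, was at 112, 111 and 113 CPM in control, 103, 109 and 105 CPM in RBPMS knockdown, 74.2, 75.4 and 75.1 CPM after RBFOX2 knockdown and 108, 111 and 108 CPM in QKI knockdown. RBFOX2 knockdown lay well below all other libraries. The fall there was −0.58 (SE 0.032, adjusted p 6.77e-11), while −0.082 (SE 0.032, adjusted p 0.0362) in RBPMS knockdown lost its call without any 1 of 5 libraries (RBPMS-KD 2 was the exception), with values from −0.11 to −0.062. In QKI knockdown it was −0.04 (SE 0.032, adjusted p 0.279). Gene-level counts do not separate spliced from unspliced Xbp1 mRNA, so its processing was not measured.

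**Figure D2:**
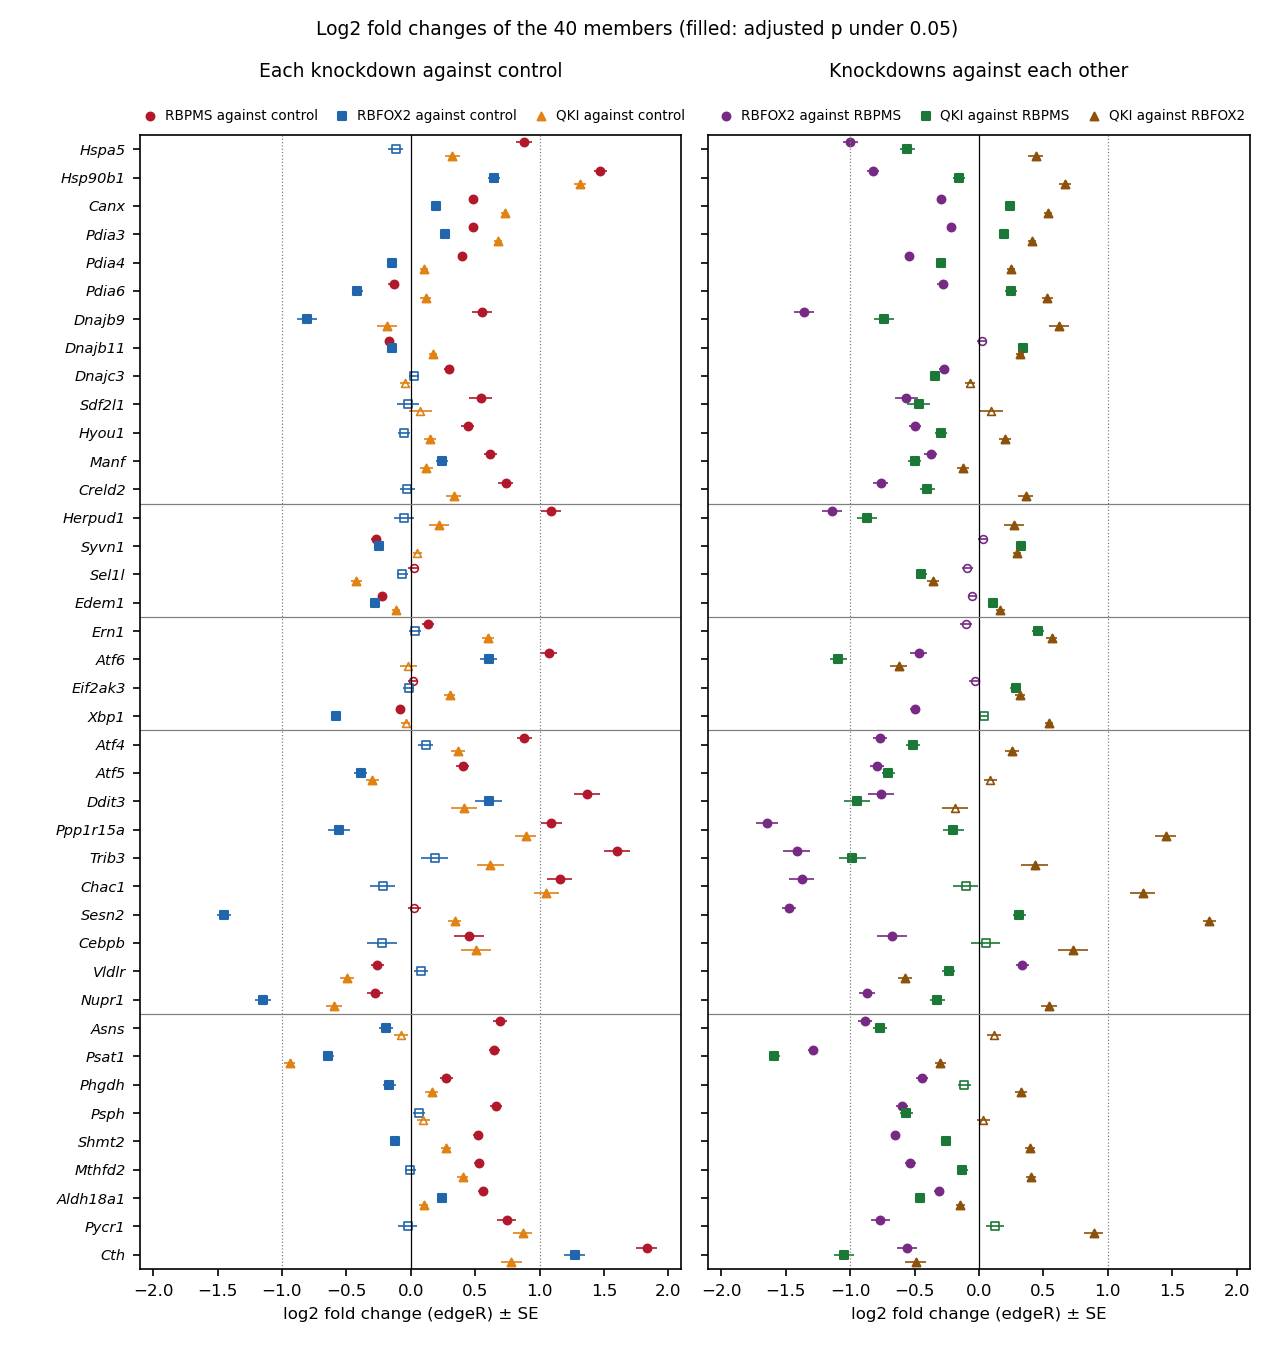
Log2 fold change (x axis, edgeR, bars show 1 SE) of each of the 40 members (rows, by role), for each knockdown against control on the left and for the knockdowns against each other on the right. Filled symbols have an adjusted p under 0.05 and dotted lines mark 2-fold; on the left the RBPMS values (red circles) lie to the right of zero for most rows, and on the right most RBFOX2 against RBPMS values (purple circles) lie to the left.

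Genes of the ATF4 arm moved by amounts from −1.45 to 1.60. Atf4 itself was at 208, 211 and 180.0 CPM in control, 342, 398 and 364 CPM in RBPMS knockdown, 212, 218 and 219 CPM after RBFOX2 knockdown and 257, 257 and 259 CPM in QKI knockdown. As log2 fold changes these were 0.88 (SE 0.056, adjusted p 4.91e-10) in RBPMS knockdown, 0.11 (SE 0.055, adjusted p 0.0856) after RBFOX2 knockdown and 0.37 (SE 0.056, adjusted p 1.49e-05) in QKI knockdown. The value after RBFOX2 knockdown passed the test in 5 of 9 other settings (values from 0.10 to 0.17) and without control 2 (0.16). Every knockdown library lay above the highest control, after RBFOX2 knockdown only just. Of the 10 genes of this role, 7 were higher and 2 lower in RBPMS knockdown, 1 higher and 4 lower after RBFOX2 knockdown, and 7 higher and 3 lower in QKI knockdown. Among all genes tested, 30.4% were higher and 29% lower in RBPMS knockdown, 30.1% each way after RBFOX2 knockdown, and 32.9% and 34% in QKI knockdown. The counts lower in RBFOX2 and QKI knockdown are near those shares.

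Ddit3 encodes CHOP, the transcription factor linked to cell death under lasting stress, and lies over part of the tRNA synthetase gene Mars1 in the annotation. It was at 41.4, 44.7 and 30.5 CPM in control, 90.2, 113 and 97.3 CPM in RBPMS knockdown, 57.2, 60.3 and 59.8 CPM after RBFOX2 knockdown and 52.2, 48.9 and 54.4 CPM in QKI knockdown. Every knockdown library was above every control, with RBPMS knockdown highest. Relative to control the log2 changes were 1.37 (SE 0.10, adjusted p 4.17e-09), 0.60 (SE 0.10, adjusted p 6.32e-05) and 0.42 (SE 0.10, adjusted p 0.00169) in RBPMS, RBFOX2 and QKI knockdown.

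Trib3, a pseudokinase that CHOP and ATF4 induce, was at 22.6, 24.5 and 16.5 CPM in control, 58.4, 68.3 and 66.2 CPM in RBPMS knockdown, 25.04, 24.9 and 22.4 CPM after RBFOX2 knockdown and 33.5, 29.8 and 34.3 CPM in QKI knockdown. RBFOX2 knockdown overlapped with control, and RBPMS and QKI knockdown did not. Its log2 fold changes were 1.60 (SE 0.10, adjusted p 7.38e-10), 0.19 (SE 0.10, adjusted p 0.139) and 0.62 (SE 0.10, adjusted p 5.14e-05), in the same order of knockdowns, and the RBFOX2 value passed the test without control 2 (0.30).

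Ppp1r15a encodes GADD34, the phosphatase subunit that reverses the phosphorylation of eIF2 alpha. It was at 98.95, 107 and 77.6 CPM in control, 187, 210.2 and 207 CPM in RBPMS knockdown, 63.3, 65.5 and 64.03 CPM after RBFOX2 knockdown and 175, 167 and 185 CPM in QKI knockdown. RBPMS and QKI knockdown lay above all controls and RBFOX2 knockdown below them. The fit gave log2 changes of 1.09 (SE 0.082, adjusted p 4.32e-09), −0.56 (SE 0.082, adjusted p 1.51e-05) and 0.89 (SE 0.082, adjusted p 3.27e-08). Without control 3 the RBPMS value was 0.96.

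Chac1, a glutathione-degrading enzyme induced by ATF4, was at 34.4, 36.6 and 24.5 CPM in control, 66.1, 74.6 and 72.3 CPM in RBPMS knockdown, 27.6, 27.8 and 26.7 CPM after RBFOX2 knockdown and 66.9, 63.8 and 67.4 CPM in QKI knockdown. RBPMS and QKI knockdown were high to a like extent, and RBFOX2 knockdown overlapped with control. Its log2 fold changes were 1.16 (SE 0.097, adjusted p 1.58e-08), −0.22 (SE 0.097, adjusted p 0.064) and 1.05 (SE 0.096, adjusted p 3.24e-08). Without control 3 they were 0.999, −0.38 and 0.89, the second past the test and the other values below 2-fold.

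The regulators Sesn2 and Nupr1 were low after RBFOX2 knockdown. Sesn2, a leucine-binding inhibitor of mTORC1 signalling, was at 109, 116 and 103 CPM in control, 107, 109.9 and 117 CPM in RBPMS knockdown, 39.4, 42.1 and 38.8 CPM after RBFOX2 knockdown and 137, 132 and 146 CPM in QKI knockdown. RBPMS knockdown overlapped with control, RBFOX2 knockdown was far below and QKI knockdown above. The fitted log2 fold changes were 0.027 (SE 0.051, adjusted p 0.672), −1.45 (SE 0.053, adjusted p 2.90e-13) and 0.34 (SE 0.051, adjusted p 1.39e-05). Nupr1, a small chromatin-associated stress protein, was at 237, 225 and 233 CPM in control, 175, 217 and 182 CPM in RBPMS knockdown, 106, 105 and 104 CPM after RBFOX2 knockdown and 152, 162 and 145 CPM in QKI knockdown. All knockdown libraries were below all controls, RBFOX2 knockdown the lowest. Its log2 fold changes were −0.28 (SE 0.061, adjusted p 8.96e-04), −1.14 (SE 0.062, adjusted p 5.37e-11) and −0.60 (SE 0.061, adjusted p 1.46e-07).

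The remaining genes of the ATF4 arm moved by less than 2-fold in each knockdown. Atf5, a relative of ATF4 that responds to the same kinases, was higher in RBPMS knockdown (0.40, SE 0.051, adjusted p 2.53e-06) and lower in RBFOX2 (−0.39) and QKI knockdown (−0.30). Cebpb, which encodes a partner of ATF4 on the composite element, was at 0.45 in RBPMS knockdown and 0.51 in QKI knockdown, both past the test, and at −0.22 (SE 0.12, adjusted p 0.104) after RBFOX2 knockdown, where leaving out RBFOX2-KD 1 gave −0.38 and a pass. The lipoprotein receptor gene Vldlr was lower in RBPMS knockdown (−0.26) and QKI knockdown (−0.50), and at 0.078 (SE 0.052, adjusted p 0.212) after RBFOX2 knockdown, which passed without control 3 (0.16).

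**Figure D3:**
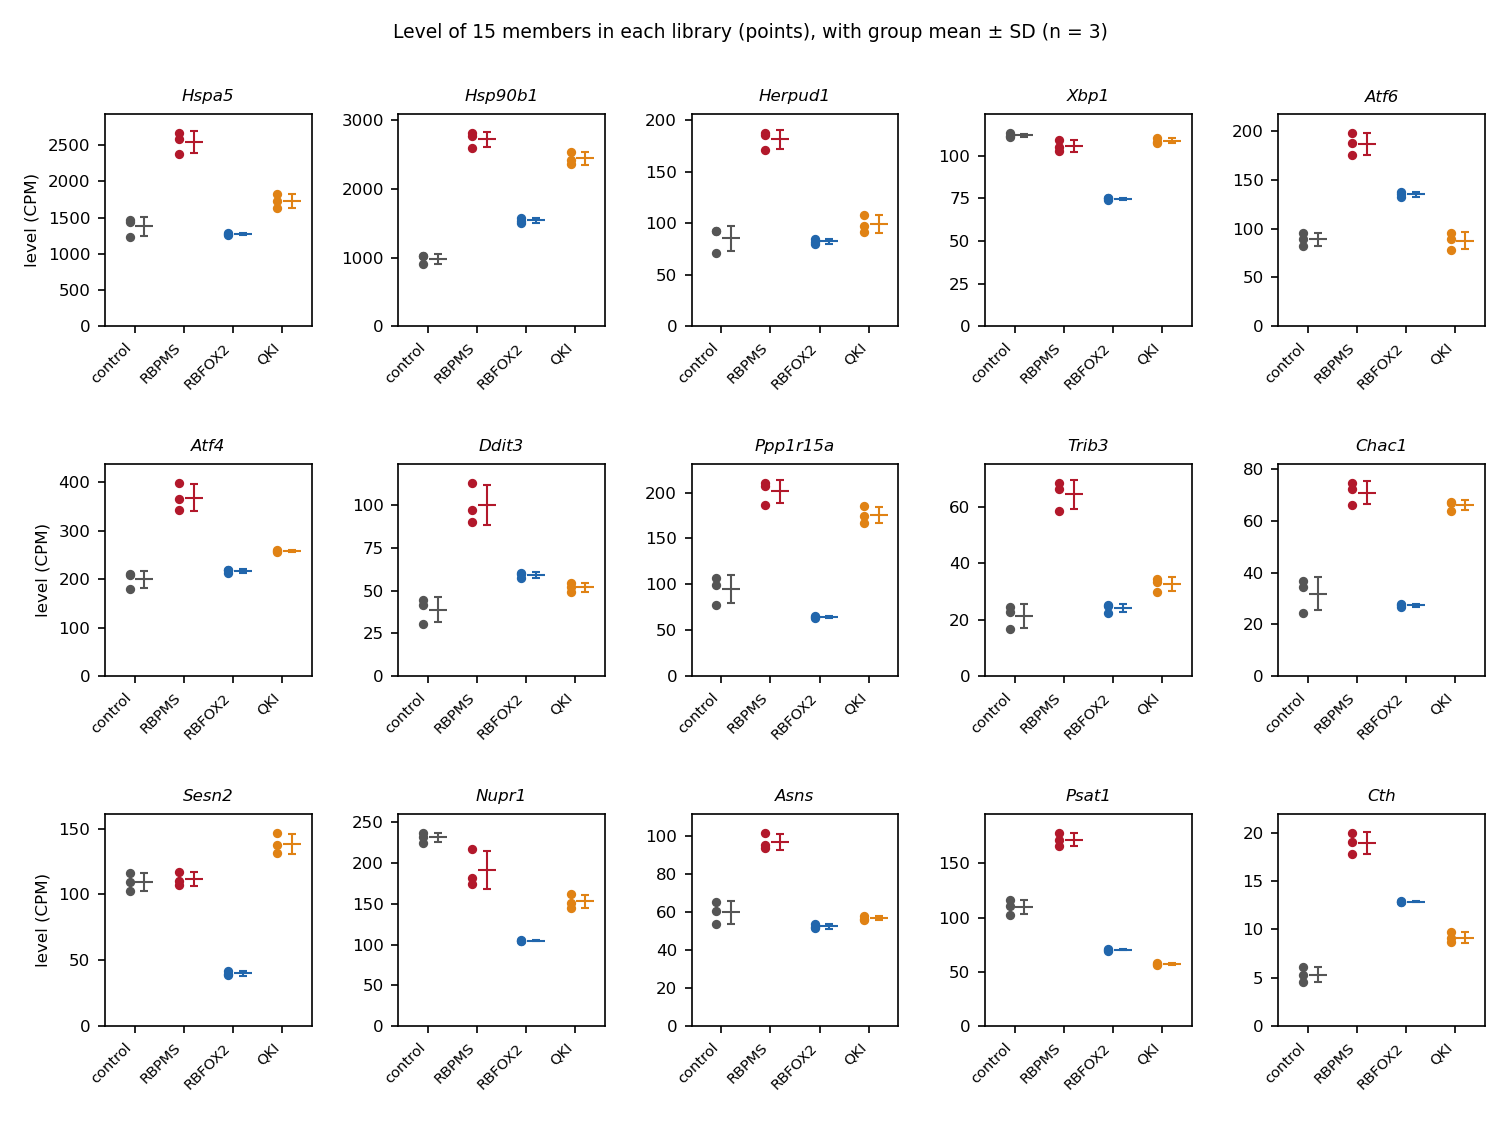
Level in CPM (y axis, from 0) of 15 members in each library (points) for control and the 3 knockdowns (x axis), with the group mean and SD (n = 3) beside the points. RBPMS knockdown is highest for Hspa5, Trib3 and Cth among others, RBFOX2 knockdown is lowest for Sesn2, Nupr1 and Xbp1, and QKI knockdown is lowest for Psat1.

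The genes of amino acid synthesis and one-carbon metabolism rose together in RBPMS knockdown, where all 9 were higher. After RBFOX2 knockdown 2 were higher and 4 lower, and in QKI knockdown 6 were higher and 1 lower. The shares of all genes tested were 30.4% higher in RBPMS knockdown, 30.1% each way after RBFOX2 knockdown, and 32.9% higher and 34% lower in QKI knockdown. The RBFOX2 counts are near that share. Asns, asparagine synthetase and a standard readout of amino acid shortage, was at 60.5, 65.5 and 53.8 CPM in control, 95.6, 102 and 93.8 CPM in RBPMS knockdown, 52.04, 53.9 and 51.6 CPM after RBFOX2 knockdown and 58.1, 56.6 and 56.1 CPM in QKI knockdown. RBPMS knockdown alone stood clear of the controls. This gave log2 fold changes of 0.70 (SE 0.055, adjusted p 7.59e-09), −0.19 (SE 0.055, adjusted p 0.00632) and −0.073 (SE 0.055, adjusted p 0.25) in RBPMS, RBFOX2 and QKI knockdown. The call after RBFOX2 knockdown was lost without control 2 (−0.12), and the value in QKI knockdown passed without control 3 (−0.15).

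Cth, the transsulfuration enzyme that makes cysteine, had the largest rise of any member. It was at 5.31, 6.09 and 4.53 CPM in control, 19.1, 19.9 and 17.8 CPM in RBPMS knockdown, 12.9, 12.8 and 12.8 CPM after RBFOX2 knockdown and 8.66, 9.07 and 9.7 CPM in QKI knockdown. The 4 groups did not overlap. As log2 fold changes these were 1.83 (SE 0.082, adjusted p 6.67e-12), 1.27 (SE 0.082, adjusted p 5.41e-10) and 0.78 (SE 0.084, adjusted p 2.48e-07).

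Serine pathway genes differed in direction between knockdowns. Psat1, the aminotransferase of the pathway, was at 109.6 ± 6.55 CPM (SD, n = 3) in control, 172 ± 5.9 CPM in RBPMS knockdown, 70.3 ± 0.677 CPM after RBFOX2 knockdown and 57.1 ± 0.952 CPM in QKI knockdown, with log2 fold changes of 0.65 (SE 0.041, adjusted p 4.62e-10), −0.64 (SE 0.041, adjusted p 4.96e-10) and −0.94 (SE 0.042, adjusted p 1.83e-12). Phgdh, which opens the pathway, moved by 0.28 in RBPMS knockdown, −0.17 after RBFOX2 knockdown and 0.16 in QKI knockdown, the smallest rise of the 9 in RBPMS knockdown. Pycr1, the last enzyme of proline synthesis, rose in RBPMS (0.74, SE 0.074, adjusted p 1.39e-07) and QKI knockdown (0.87, SE 0.073, adjusted p 1.10e-08) and was at −0.023 after RBFOX2 knockdown (adjusted p 0.807). Aldh18a1, the first enzyme of proline synthesis, rose by 0.56 in RBPMS knockdown and 0.24 after RBFOX2 knockdown, and its 0.099 (SE 0.036, adjusted p 0.0235) in QKI knockdown was lost without control 1 or 3 or QKI-KD 1 or 2 (values from 0.073 to 0.12). Psph, Shmt2 and Mthfd2, of serine synthesis and mitochondrial one-carbon metabolism, rose by 0.52 to 0.66 in RBPMS knockdown, lay between −0.13 and 0.064 after RBFOX2 knockdown, and were at 0.098 to 0.40 in QKI knockdown.

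ER chaperones and amino acid genes were compared directly by the median over each list of log2 CPM minus its control mean, taken in every library. In RBPMS knockdown 1, 2 and 3 the chaperone medians were 0.43, 0.52 and 0.50, and the amino acid medians 0.61, 0.70 and 0.58. After RBFOX2 knockdown they were −0.0066, −0.048 and −0.05 for the chaperones and −0.059, 0.038 and −0.094 for the amino acid genes. In QKI knockdown the chaperone medians were 0.16, 0.12 and 0.19, and the amino acid medians 0.20, 0.18 and 0.11. Both lists were thus up in RBPMS knockdown, with the amino acid medians the higher in each library, near the controls after RBFOX2 knockdown, and slightly up in QKI knockdown, where the ranges of both lists overlapped. The control medians themselves ran from −0.06 to 0.037 for the chaperones and from −0.091 to 0.07 for the amino acid genes.

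By the fitted values, the chaperone median was 0.48, −0.027 and 0.15 in RBPMS, RBFOX2 and QKI knockdown, and the amino acid median 0.65, −0.023 and 0.16. The RBFOX2 medians change sign with the scaling and with the library left out, with values between −0.119 and 0.031, so no direction is given for them. The QKI medians were larger with library totals only (0.233 for chaperones and 0.247 for amino acid genes) and in the quantile-normalised table (0.249 and 0.244). The ATF4 arm genes had medians of 0.67, −0.22 and 0.39, the degradation genes −0.099, −0.16 and −0.031, and the sensors with Xbp1 0.077, 0.009 and 0.14. Summed over the 13 chaperones, the level was 5853 to 6426 CPM in control, 9704 to 10527 CPM in RBPMS knockdown, 6612 to 6755 CPM after RBFOX2 knockdown and 9040.3 to 9497 CPM in QKI knockdown. A sum weights genes by their counts, and a median does not: by the sum QKI knockdown was close to RBPMS knockdown, and by the median it was nearer to control. For the 9 amino acid genes the sums were 792 to 873, 1155 to 1254, 756 to 777 and 884 to 913 CPM.

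The windows with a motif were set beside these values as a description. The 5 chaperones whose window held the ER stress response element had log2 fold changes of 0.30 to 1.47 in RBPMS knockdown, −0.12 to 0.65 after RBFOX2 knockdown and −0.044 to 1.31 in QKI knockdown. The 5 with a window that lacked a match to the searched pattern (Pdia4, Dnajb9, Dnajb11, Sdf2l1 and Hyou1) had −0.17 to 0.55, −0.81 to −0.021 and −0.19 to 0.17 in the same order. Other forms of the element were not searched, so these windows may hold one. Xbp1, which also held the element, was at −0.082, −0.58 and −0.04. The 5 members with the composite element ranged from −0.28 to 1.60 in RBPMS knockdown, from −1.14 to 0.19 after RBFOX2 knockdown and from −0.60 to 1.05 in QKI knockdown.

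The knockdowns were then compared with each other without the controls. RBFOX2 knockdown was lower than RBPMS knockdown for 33 members and higher for 1, Vldlr, against 28.8% of all genes lower and 27.9% higher. Of these, 7 members differed by over 2-fold, all lower after RBFOX2 knockdown, against 7.52% of all genes and 2.43% of the abundant ones. They were Ppp1r15a at −1.65 (SE 0.083, adjusted p 4.63e-11), Sesn2 at −1.48 (SE 0.053, adjusted p 5.05e-13), Trib3 at −1.42, Chac1 at −1.37, Dnajb9 at −1.36, Psat1 at −1.29 and Herpud1 at −1.14. Hspa5 lay just short of 2-fold, at −0.998 (SE 0.059, adjusted p 3.73e-10), and passed it without RBFOX2-KD 2, RBFOX2-KD 3 or RBPMS-KD 1 (values from −1.04 to −0.96).

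QKI knockdown was lower than RBPMS knockdown for 26 members and higher for 9, against 32% of all genes lower and 29% higher. Over 2-fold, 3 members were lower in QKI knockdown (12.2% of all genes and 5.89% of the abundant ones differed so): Psat1 at −1.59 (SE 0.042, adjusted p 4.09e-15), Atf6 at −1.09 (SE 0.066, adjusted p 1.97e-10) and Cth at −1.05 (SE 0.079, adjusted p 3.75e-09). Without RBPMS-KD 1 the count was 5, with Trib3 (−1.05) and Ddit3 (−1.02) added, and with library totals only it was 1. That scaling also moved the share of higher genes among all that passed from 47.5% to 61.9% here, and from 49.2% to 63.4% between RBFOX2 and RBPMS knockdown, where 3 members were then higher and 33 lower. Chac1 did not pass the test between these 2 knockdowns (−0.10, SE 0.094, adjusted p 0.356), nor did Xbp1 or Pycr1. The value of Ppp1r15a, −0.20 (SE 0.081, adjusted p 0.0427), was lost without RBPMS-KD 2 or 3 or QKI-KD 1 or 2 (values from −0.25 to −0.16).

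QKI knockdown was higher than RBFOX2 knockdown for 27 members and lower for 7, against 33.5% of all genes higher and 35% lower. Over 2-fold there were 3, all higher in QKI knockdown, against 18.4% of all genes and 9.68% of the abundant ones: Sesn2 at 1.79 (SE 0.053, adjusted p 1.11e-14), Ppp1r15a at 1.45 (SE 0.083, adjusted p 6.44e-11) and Chac1 at 1.27 (SE 0.097, adjusted p 2.99e-09). Atf6 (−0.62), Vldlr (−0.57), Cth (−0.49) and Psat1 (−0.30) were among those lower in QKI knockdown.

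Related genes outside the 40 were counted in further lists. Their counts stand against the shares of all genes tested, 30.4% higher and 29% lower in RBPMS knockdown, 30.1% each way after RBFOX2 knockdown and 32.9% and 34% in QKI knockdown. Cytosolic aminoacyl-tRNA synthetases, which charge tRNAs and include ATF4 targets, were higher for 18 of 19 in RBPMS knockdown, with a median log2 fold change of 0.50. In RBFOX2 and QKI knockdown 14 were higher and 3 lower, with medians of 0.19 and 0.23. Yars1 had the largest changes (1.80, 1.46 and 1.58 in RBPMS, RBFOX2 and QKI knockdown), Kars1 was up in each (0.84, 0.85 and 1.09), and Farsb rose in RBPMS knockdown (0.60) and fell after RBFOX2 knockdown (−0.96).

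All 10 amino acid transporters were higher in RBPMS knockdown, with a median of 0.64. After RBFOX2 knockdown 3 were higher and 4 lower, and in QKI knockdown 2 were higher and 3 lower. Slc1a5, the glutamine carrier, was up in each knockdown (1.27, 0.63 and 1.23), while the glycine carrier Slc6a9 rose in RBPMS knockdown (0.80) and fell in RBFOX2 (−0.54) and QKI knockdown (−0.32). Slc3a2, the heavy chain shared by several carriers, was at 1.14, 0.17 and 0.39.

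Of 15 other genes of the ATF4 and eIF2 alpha pathway, 12 were higher and 2 lower in RBPMS knockdown, 7 higher and 5 lower after RBFOX2 knockdown, and 8 higher and 3 lower in QKI knockdown. Eif2ak2, which encodes the eIF2 alpha kinase PKR that senses double-stranded RNA, was higher in each, at 1.06 (SE 0.052, adjusted p 2.04e-11), 1.49 (SE 0.052, adjusted p 1.72e-13) and 0.95 (SE 0.052, adjusted p 3.26e-11). Aldh1l2, a mitochondrial folate enzyme, also rose in each (1.14, 0.92 and 1.45), and Ddit4, an mTORC1 inhibitor, fell in each (−0.46, −0.89 and −2.01).

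Other genes of ER folding and export were less one-sided, with 11 of 21 higher and 3 lower in RBPMS knockdown, 7 higher and 11 lower after RBFOX2 knockdown, and 11 higher and 6 lower in QKI knockdown. The disulfide isomerase Txndc5 (1.25, 1.44 and 1.76) and the translocon-associated subunits Ssr1 (0.97, 0.94 and 1.25) and Ssr3 (0.81, 0.65 and 0.97) rose in all 3. Cytosolic heat shock genes, the counterpart outside the ER, were higher for 6 of 9 in RBPMS knockdown and lower for 1. In RBFOX2 and QKI knockdown 5 of them were lower, and 2 and 3 higher. Hsph1 rose in each (0.73, 0.49 and 0.81), whereas Hspa4l rose in RBPMS knockdown (0.35) and fell in RBFOX2 (−0.73) and QKI knockdown (−0.68). Hspa1b was lower after RBFOX2 knockdown (−1.08), and is nearly identical to Hspa1a, so its counts are uncertain.

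**Figure D4:**
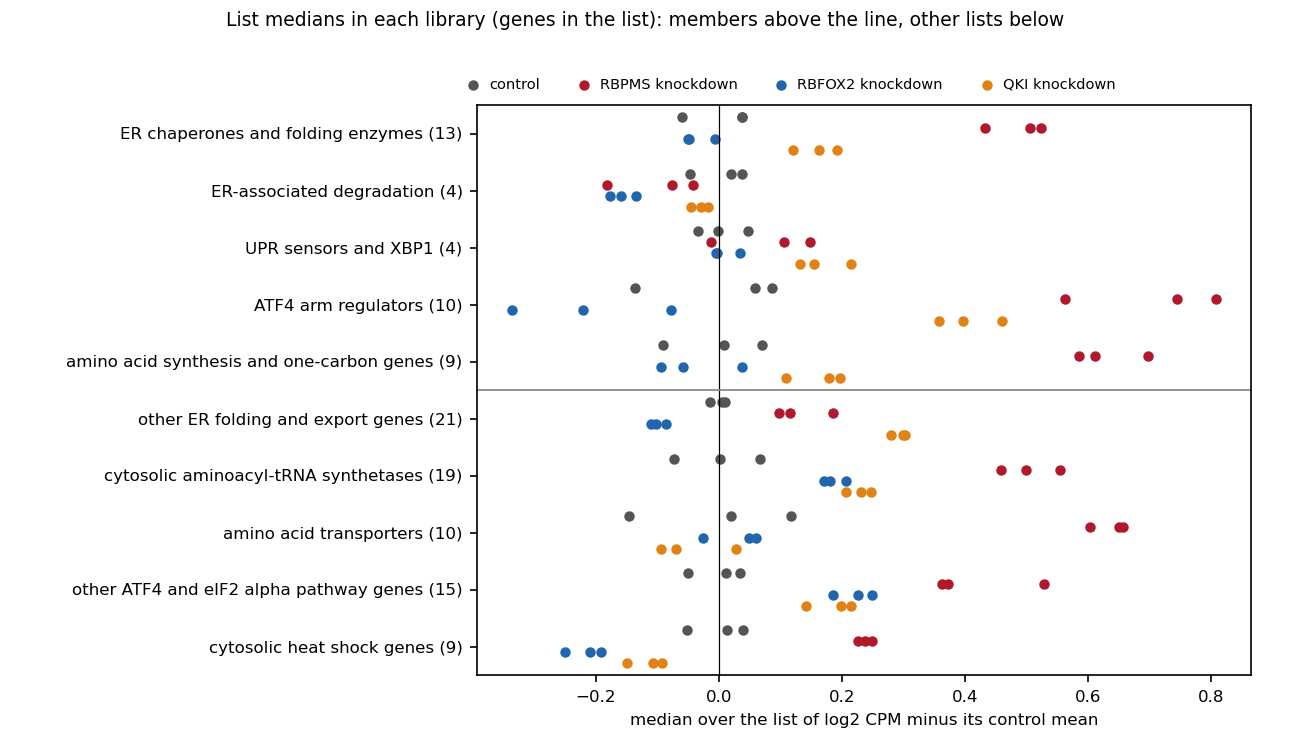
Median over each list (rows, number of genes in brackets) of log2 CPM minus the control mean (x axis) in each of the 12 libraries (points, coloured by group), with the 5 role groups of the members above the line and 5 related lists below. In RBPMS knockdown the chaperone, ATF4 arm, amino acid, tRNA synthetase and transporter medians lie between 0.432 and 0.808 in every library, and the transporter medians of RBFOX2 and QKI knockdown lie among the controls.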

How the data were processed

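Poly(A) RNA libraries of PAC1 cells were analysed, 12 in all and 3 for each siRNA. The paper describes alignment of the reads to mRatBN7.2 with STAR and counting per gene with featureCounts, and the deposited table holds raw counts. The submitters' processing notes name STAR 2.5.2a, FastQC 0.11.2, MultiQC 1.8, edgeR 3.28.1 and DESeq2 1.30.0. The paper gives other versions of STAR, FastQC and MultiQC, so the processing behind the count table is not certain. A second deposited table holds a signal per gene, which the authors made by removing low-level noise and quantile normalisation, and it served only as an alternative. Neither table holds fold changes by the authors. The study describes subsampling to 1 depth, yet the library totals of the count table differ (110595399 to 151665474), so counts were used as deposited. Whether fragments or reads were counted, and with which strand setting, is not given in the sources used here.

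Groups came from the sample labels. Genes were filtered with edgeR's default filter (18438 of 33294 kept, with 99.99% of counts), scaled by TMM and fitted with edgeR 4.0.16 (R 4.3.3) by the quasi-likelihood test in 1 model over the 12 libraries, two-sided, with Benjamini-Hochberg adjustment over all genes tested. A gene passed the test at an adjusted p under 0.05, and changes of over 2-fold also required an absolute log2 fold change above 1. Exact permutation of 3 against 3 libraries cannot give a p under 0.1, so no such test was used. Counts were also simulated from the mean levels over all 12 libraries, with the same spread for every gene. Only changes of over 2-fold were put into the RBPMS group. Over 18117 genes, 199 of 200 changed genes were recovered against control. Smaller changes and genes of wider spread were not tried, so this checks the code and not the calls near or below 2-fold. Counting error is small at this depth, and the precision is set by the number of libraries.

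The members and gene lists were chosen with earlier results of these data known. Values per library were given for members past 2-fold in a knockdown and for Hspa5, Hsp90b1, Xbp1, Atf4, Ddit3 and Asns; up to 4 others were named per role by the size of their changes, and of each related list the 3 genes with the largest mean absolute change and at least 5 CPM. Members outside this rule were named after their values were seen, where a count was small or a call was lost. Alternatives were DESeq2 1.42.0, RLE size factors, library totals only, no filter, a mean of at least 200 counts, halved counts, the 6 libraries of a comparison alone, a replicate block, the quantile-normalised table (limma 3.58.1, log2 of value plus 1) and leaving out each library. No 2 libraries were near-identical. Promoter windows were matched by symbol.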

Additional observations from a re-analysis of the deposited data

Results flagged for a closer look

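Psat1, Ppp1r15a, Dnajb9 and Sesn2 moved in opposite directions in 2 knockdowns, each past the test against control, with a direct difference of over 2-fold between those knockdowns. Of all genes tested, 7.52% differed by over 2-fold between RBFOX2 and RBPMS knockdown. The shares were 12.2% between QKI and RBPMS knockdown and 18.4% between QKI and RBFOX2 knockdown. How many of all genes meet the whole rule was not counted, so these members are not shown to be unusual. Psat1 (phosphoserine aminotransferase) rose in RBPMS knockdown and fell in both others, and was lower than in RBPMS knockdown by log2 differences of −1.29 (SE 0.041, adjusted p 1.21e-13) in RBFOX2 knockdown and −1.59 (SE 0.042, adjusted p 4.09e-15) in QKI knockdown. Ppp1r15a (GADD34) fell in RBFOX2 knockdown and rose in the others, and differed by −1.65 (SE 0.083, adjusted p 4.63e-11) between RBFOX2 and RBPMS knockdown and by 1.45 (SE 0.083, adjusted p 6.44e-11) between QKI and RBFOX2 knockdown. Dnajb9 rose in RBPMS knockdown and fell in RBFOX2 knockdown, with a direct difference of −1.36 (SE 0.079, adjusted p 2.91e-10). Sesn2 rose in QKI knockdown and fell in RBFOX2 knockdown, with 1.79 (SE 0.053, adjusted p 1.11e-14) between them. In each of these comparisons the 3 libraries of 1 knockdown did not overlap with those of the other. The pairs were chosen by the size of that difference, so the lack of overlap adds no support. With 3 libraries a group, no test for a library far from its group was run.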

How the results depend on the processing

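The counts of members past 2-fold (8 in RBPMS, 3 in RBFOX2 and 2 in QKI knockdown against control, and 7, 3 and 3 for RBFOX2 against RBPMS, QKI against RBPMS and QKI against RBFOX2) were 37, 23, 33, 34, 35 and 34 by adjusted p alone. Leaving out 1 library gave 5 to 8, 3 to 3, 1 to 2, 7 to 8, 3 to 5 and 3 to 3, with the low values in RBPMS and QKI knockdown without control 3. With library totals only, 1 member differed by over 2-fold between QKI and RBPMS knockdown; that scaling moved the median of all genes by 0.130 in that comparison. The ER chaperone median in RBFOX2 knockdown turned positive with library totals only (0.027) and in the quantile-normalised table (0.0054), and ran from −0.119 to 0.021 without 1 library. The amino acid median there turned positive with library totals only (0.031) and ran from −0.097 to 0.026. In QKI knockdown the chaperone median was 0.233 and 0.249 and the amino acid median 0.247 and 0.244 under those 2 settings, with 0.102 to 0.182 and 0.126 to 0.195 without 1 library. In RBPMS knockdown the medians stayed at 0.449 to 0.508 and 0.603 to 0.679. Mthfd2 in QKI against RBPMS knockdown reversed with library totals only (0.0022) and was then not called; the cause of these shifts was not tested. Of 3600 single-gene values under alternatives, 3457 kept their side of the threshold, 80 lost it and 62 gained it. Calls that held under every setting and every omission were 34 of 37, 18 of 23 and 25 of 33 in RBPMS, RBFOX2 and QKI knockdown.

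Replicate numbers were shared between groups, but same-numbered libraries did not deviate together (r from −0.055 to 0.039, 0 of 18 pairs over 0.1, and 2 of 12 libraries closest to their own number), so they were not treated as paired. With the replicate number as a block, the counts past 2-fold were 8, 3, 2, 7, 3 and 3, and the medians 0.485, −0.025 and 0.148 for chaperones and 0.649, −0.023 and 0.162 for amino acid genes. Calls of Dnajb9 in QKI knockdown and Ppp1r15a in QKI against RBPMS knockdown were lost, and Asns in QKI against RBFOX2 and Phgdh in QKI against RBPMS knockdown were gained.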

Other observations

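Gapdh and Canx, which the study used as reference genes for quantitative PCR, were looked up after other values had been seen. The quantitative PCR shown in the study compares differentiated with proliferative cells, a comparison these libraries do not hold. The log2 fold change of Gapdh was 0.02 (SE 0.049, adjusted p 0.753) in RBPMS knockdown, −0.47 (SE 0.05, adjusted p 2.96e-07) in RBFOX2 knockdown and −0.40 (SE 0.05, adjusted p 1.36e-06) in QKI knockdown by edgeR. Canx, one of the chaperone genes described above, rose in all 3 knockdowns, by 0.48, 0.19 and 0.73 on the same scale.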
